A study of Ovis aries with 24 samples.

Results

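Expression of 10 genes of the interleukin-6 (IL-6) family was followed in preterm lambs, in the liver and in periventricular white matter (PVWM, brain tissue next to the ventricles). The genes were listed by symbol: the cytokines IL6, LIF and OSM, the receptor subunits IL6R, IL6ST, LIFR and OSMR, the transcription factor STAT3, and the feedback inhibitors SOCS3 and SOCS1. Each tissue's table held 27716 entries, and all 10 symbols were found in both. In liver 10 of 10 passed the low-count filter, among 16824 genes tested. In PVWM 6 of 10 passed it, among 18616 genes. IL6, LIF, OSM and SOCS1 had too few reads to pass there.

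Cytokines of this family bind a receptor of their own and then recruit the shared signalling subunit gp130, the product of IL6ST. Kinases bound to the receptor phosphorylate STAT3, which enters the nucleus and switches on target genes. SOCS3 is among those targets and blocks the receptor complex, so that signalling limits itself. IL-6 is the classical trigger of the acute-phase response, in which hepatocytes secrete proteins such as fibrinogen. In brain, LIF and related cytokines act on glia.

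By the animal numbers in the sample titles, the study holds 24 libraries from 13 lambs, with 4 animals per group and tissue, and 11 animals gave both tissues. Unventilated lambs received neither surfactant nor drug and were 127 or 128 days of gestation. Of these, animals 057 and 058 were labelled male and 059 female, 060 was labelled female in PVWM and carried no sex label in liver, and 061 carried none. Surfactant lambs were mechanically ventilated and given the porcine lung surfactant poractant alfa into the trachea at 2.5 mL/kg. Budesonide lambs were ventilated and given the same dose of surfactant with the glucocorticoid budesonide at 0.25 mg/kg. Ventilated lambs were females of 126 days, except surfactant animal 007 and budesonide animal 054, which were males of 127 days. Every ventilated lamb received surfactant, so ventilation and surfactant cannot be told apart, and the labels give no ventilator setting or sampling time. The title names injurious ventilation, and the comparisons ask what it changed outside the lung and what budesonide added.

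Total counts were 16.1 to 23.2 M per liver library and 14.9 to 17.5 M per PVWM library. Summed over the 6 hepatocyte markers in the table, liver libraries held 174370 to 260455 CPM (read counts scaled to the size of the library). In PVWM, 6 astrocyte markers summed to 3766 to 6104 CPM and 4 neuron markers to 3800 to 4784 CPM. None of these markers was at 0 in any group of its own tissue. The hepatocyte marker SERPINA1 was at 0 in unventilated PVWM. Surfactant animals 049 and 051 stood apart from the other animals of their group in several of the 10 genes, so results of that group are also given without both, a choice made after their values were seen. In PVWM, animal 051 had 12169 CPM of oligodendrocyte lineage markers, against 907 to 2840 in the others. CPM were not divided by transcript length, so levels are compared between animals and not between genes.

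In liver, 9 of the 10 genes were higher in surfactant than in unventilated lambs, and none was lower. Of all genes tested, 21.6% were called higher in that comparison and 19.5% lower. A gene was called at an adjusted p under 0.05 in edgeR's quasi-likelihood test, with Benjamini-Hochberg adjustment over all genes. The median log2 change of the 10 genes was 3.48, against -0.02 over all genes. IL6R was the gene that did not pass. Against surfactant, budesonide lambs had 3 of the 10 lower (LIF, OSM and SOCS3) and 0 higher, where 7.85% of all genes were called lower and 4.01% higher. Budesonide against unventilated lambs gave 7 of 10 higher and 0 lower, with 23.3% of all genes higher and 23.7% lower. Those 7 were the 4 receptor subunits, STAT3 and both SOCS genes, and none of the 3 cytokines was among them. Without surfactant animals 049 and 051, the count of genes higher after ventilation was 6 and the count lower with budesonide was 0. Over all genes, 3906 were then called in either direction after ventilation, against 6911 with all animals. With 7.85% of all genes lower with budesonide even in the full fit, a count of 0 among 10 says little.

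**Figure D1:**
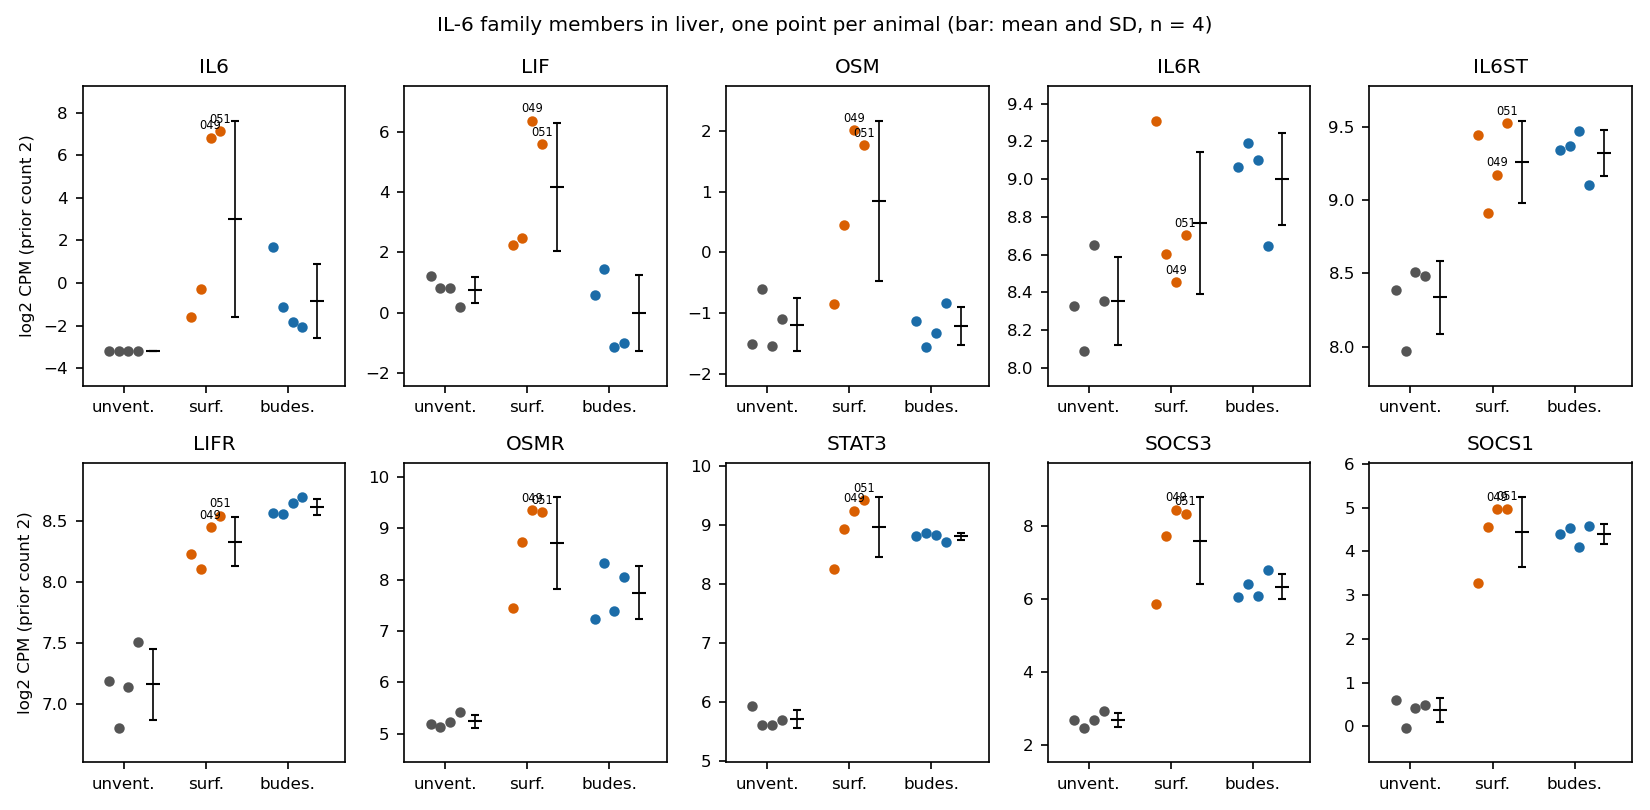
Log2 CPM (prior count 2) of the 10 genes in liver, with the animals of each group as points (unventilated, surfactant, budesonide) and the group mean and SD as bars (n = 4). In IL6, LIF and OSM surfactant animals 049 and 051 lie above all other livers. In IL6, IL6ST, LIFR, OSMR, STAT3, SOCS3 and SOCS1 all ventilated livers lie above all unventilated ones.

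IL6 encodes the cytokine that names the family. In liver it was not counted in any of the 4 unventilated lambs, where 3 counts over the group would correspond to 0.0366 CPM. The surfactant lambs had 0.222 CPM in animal 007, 0.72 in animal 032, 113 in animal 049 and 142 in animal 051. Budesonide lambs had 3.09 CPM in animal 031, 0.344 in animal 048, 0.175 in animal 050 and 0.129 in animal 054. The surfactant group thus held animals at the level of budesonide lambs and animals far above all others, and nothing between. Mean IL6 was 63.9 ± 74.1 CPM (SD, n = 4) with surfactant, at least 1747-fold higher than in unventilated lambs (adjusted p = 0.00822). This bound rests on animals 049 and 051, and was 1299-fold without 049 and 1039-fold without 051. The budesonide mean was 0.933 ± 1.44 CPM. Against surfactant its log2 change was -6.07 (SE 1.84, adjusted p = 0.0604), which missed the threshold, whereas DESeq2 gave an adjusted p of 0.0113. Against unventilated lambs the budesonide mean was at least 25.5-fold higher, with an adjusted p of 0.194 in edgeR and 0.00534 in DESeq2. That bound rests on animal 031, and without it the mean was 0.216 CPM and the bound 5.90-fold. Left out singly, surfactant animals 007 and 032 each brought the budesonide difference under the threshold (adjusted p = 0.0213 and 0.0446). With animals 049 and 051 both out, the ventilation call was lost (adjusted p = 0.103) and the log2 change of budesonide against surfactant was 0.99.

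LIF, leukemia inhibitory factor, signals through LIFR and gp130. Its liver values were 2.22, 1.64, 1.65 and 1.03 CPM in unventilated animals 057, 058, 059 and 060. With surfactant they were 4.61 CPM in animal 007, 5.52 in 032, 83.4 in 049 and 48.1 in 051. With budesonide they were 1.4 CPM in animal 031, 2.64 in 048, 0.349 in 050 and 0.386 in 054. All 4 surfactant lambs were above all 8 others, and the unventilated and budesonide ranges overlapped. The log2 change was 4.44 after ventilation (SE 0.92, adjusted p = 0.00258) and -4.87 with budesonide against surfactant (SE 0.95, adjusted p = 0.00863). Without animals 049 and 051 these were 1.62 (adjusted p = 0.0818) and -2.07 (adjusted p = 0.0571).

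OSM encodes oncostatin M, a cytokine made mainly by neutrophils and macrophages. Its liver values were low throughout, at 0.241, 0.548, 0.235 and 0.357 CPM in unventilated animals 057, 058, 059 and 060, or 4 to 12 reads each. The surfactant lambs had 0.445 CPM in animal 007, 1.26 in 032, 3.94 in 049 and 3.29 in 051, and budesonide lambs 0.229 to 0.45 CPM. Surfactant animal 007 thus lay within the range of both other groups, and the other 3 lay above it. The log2 change was 2.66 after ventilation (SE 0.58, adjusted p = 0.00348) and -2.75 with budesonide against surfactant (SE 0.60, adjusted p = 0.0136). Neither passed without animals 049 and 051 (adjusted p = 0.114 and 0.133). Summed neutrophil markers, of which 7 were in the table, were 95.6 to 165 CPM in unventilated, 216 to 396 CPM in surfactant and 97.9 to 162 CPM in budesonide livers. Of the 7, 6 were higher with surfactant than in unventilated lambs, where 21.6% of all genes were. With budesonide 1 of the 7 was lower than with surfactant, where 7.85% of all genes were. All 7 had lower means with budesonide than with surfactant, and FCGR3A fell most in CPM, from 113.8 to 23.96. With budesonide 3 of the 7 were higher than in unventilated lambs and 1 was lower, where 23.3% and 23.7% of all genes were. CSF3R rose from a mean of 3.76 to 7.93 CPM, CXCR2 from 1.40 to 7.37 CPM and S100A9 from 20.6 to 46.6 CPM, while FCGR3A, at 72.1 CPM in unventilated livers the largest part of the sum, fell by 1.59 on the log2 scale. Macrophage markers summed to 530 to 650 CPM in unventilated, 624 to 728 in surfactant and 529 to 778 in budesonide livers, with overlap. Endothelial markers summed to 399 to 543 CPM, 559 to 672 CPM and 410 to 431 CPM in the same groups. Of 6 endothelial markers 3 were higher with surfactant than in unventilated lambs, where 21.6% of all genes were. With budesonide 3 of the 6 were lower than with surfactant, where 7.85% of all genes were. The part of these markers in the cytokine results was not tested. In whole tissue, more cells of a type and more RNA per cell cannot be told apart.

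Among the receptor subunits, OSMR, the signalling partner of gp130 for oncostatin M, had the largest liver change. Unventilated livers had 36.2, 35.1, 37.2 and 42.9 CPM in animals 057, 058, 059 and 060. Surfactant livers had 174 CPM in animal 007, 428 in 032, 658 in 049 and 639 in 051. Budesonide livers had 151 CPM in animal 031, 319 in 048, 168 in 050 and 267 in 054. Every ventilated liver was above every unventilated one, and 3 of the 4 surfactant livers were above all budesonide livers. OSMR rose 12.5-fold in mean CPM with surfactant (log2 change 3.65, SE 0.39, adjusted p = 4.12e-05) and was 5.97-fold higher with budesonide than in unventilated lambs (adjusted p = 0.000166). Against surfactant, budesonide gave a log2 change of -1.07 (SE 0.36, adjusted p = 0.0674), which passed in DESeq2 (adjusted p = 0.0240) and without surfactant animal 007 (adjusted p = 0.00513). It was -0.42 without animals 049 and 051 (adjusted p = 0.485).

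LIFR and IL6ST, the subunits shared by several cytokines of the family, changed less. LIFR was 145, 111, 141 and 182 CPM in unventilated animals 057, 058, 059 and 060, 299, 275, 349 and 373 CPM in surfactant animals 007, 032, 049 and 051, and 380, 376, 402 and 415 CPM in budesonide animals 031, 048, 050 and 054. The 3 groups did not overlap, and the budesonide livers were the highest. LIFR rose by a log2 change of 1.16 after ventilation (SE 0.16, adjusted p = 0.000237) and was 1.44 above unventilated livers with budesonide (SE 0.17, adjusted p = 3.39e-05). The step from surfactant to budesonide was 0.28 (95% interval -0.07 to 0.63, adjusted p = 0.271). IL6ST ranged from 250 to 364 CPM in unventilated, 481 to 739 in surfactant and 552 to 712 in budesonide livers. Its level was 1.91-fold higher with surfactant (log2 change 0.93, SE 0.18, adjusted p = 0.00147) and 1.97-fold higher with budesonide (adjusted p = 0.000721) than in unventilated livers. The budesonide and surfactant ranges of IL6ST overlapped, and the log2 change between them was 0.05 (95% interval -0.33 to 0.42).

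IL6R encodes the subunit that binds IL-6 itself, and its liver values overlapped in all groups. They were 321, 272, 402 and 327 CPM in unventilated animals 057, 058, 059 and 060. With surfactant they were 635 CPM in animal 007 and 350 to 417 CPM in the other 3 animals. With budesonide they ran from 400 to 584 CPM. Animal 007, the lowest surfactant liver in 7 of the 10 genes, was the highest in IL6R. The log2 change after ventilation was 0.44 (95% interval -0.01 to 0.88, adjusted p = 0.105). Budesonide against unventilated lambs passed at 0.65 (SE 0.21, adjusted p = 0.0215). That call ended without unventilated animal 057 or 058 or budesonide animal 048 (adjusted p = 0.0532, 0.0620 and 0.0564), with sex as a covariate (0.0819) and with gestational age as one (0.0568).

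STAT3 carries the signal to the nucleus and is also a target of its own pathway. Unventilated livers had 60.4, 48.6, 48.6 and 51.3 CPM in animals 057, 058, 059 and 060. Surfactant livers had 306 CPM in animal 007, 490 in 032, 603 in 049 and 682 in 051, and budesonide livers 448, 466, 455 and 420 CPM in animals 031, 048, 050 and 054. The budesonide livers lay close together inside the wide surfactant range, and both groups lay far above the unventilated livers. STAT3 rose 9.96-fold with surfactant (log2 change 3.32, SE 0.23, adjusted p = 3.22e-06) and 8.56-fold with budesonide over unventilated lambs (log2 change 3.10, SE 0.22, adjusted p = 2.56e-06). Between budesonide and surfactant the log2 change was -0.22 (95% interval -0.66 to 0.23, adjusted p = 0.505).

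SOCS3 had the largest liver change among the genes with counts in every group. It was 6.31, 5.43, 6.29 and 7.46 CPM in unventilated animals 057, 058, 059 and 060. Surfactant livers had 58.2 CPM in animal 007, 212 in 032, 348 in 049 and 324 in 051. Budesonide livers had 66.8 CPM in animal 031, 85.5 in 048, 67.9 in 050 and 110 in 054. Every ventilated liver was above the unventilated ones, and surfactant animal 007 alone fell below the budesonide range. SOCS3 rose 36.9-fold with surfactant (log2 change 5.21, SE 0.48, adjusted p = 1.47e-05) and was 13-fold above unventilated livers with budesonide (log2 change 3.69, SE 0.45, adjusted p = 5.06e-05). With budesonide it fell by 1.51 on the log2 scale against surfactant (SE 0.41, adjusted p = 0.0312). This fall lost its call when any of surfactant animals 032, 049 and 051 or budesonide animals 031, 048 and 050 was left out (adjusted p = 0.0522 to 0.0915). It also lost it with only those groups in the fit (0.0845), with sex (0.0803) or gestational age (0.0531) as a covariate, and without both 049 and 051 (log2 change -0.71, adjusted p = 0.263).

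SOCS1, the other inhibitor, also rose in liver, and its ventilated groups overlapped. Its values were 1.4, 0.867, 1.23 and 1.29 CPM in unventilated animals 057, 058, 059 and 060. Surfactant livers had 9.62 CPM in animal 007, 23.2 in 032, 31 in 049 and 31.4 in 051, and budesonide livers 20.8, 23, 16.9 and 23.8 CPM in animals 031, 048, 050 and 054. All ventilated livers were above all unventilated ones. SOCS1 rose 19.9-fold with surfactant (log2 change 4.31, SE 0.35, adjusted p = 7.34e-06) and 17.6-fold with budesonide over unventilated livers (adjusted p = 5.95e-06). The log2 change between budesonide and surfactant was -0.17 (95% interval -0.81 to 0.47, adjusted p = 0.728).

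**Figure D2:**
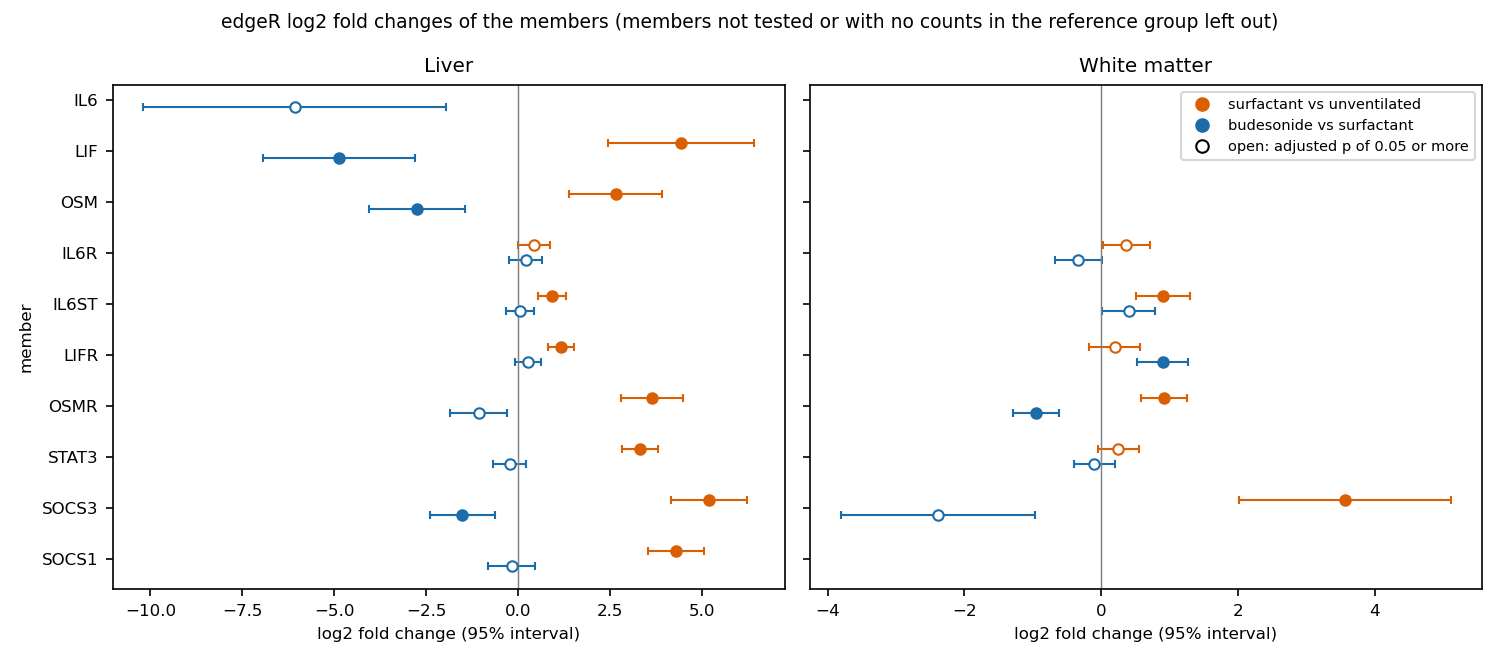
Log2 fold changes with 95% intervals for surfactant against unventilated (orange) and budesonide against surfactant (blue) in liver and white matter, with filled points for adjusted p under 0.05. Liver changes after ventilation reach 5.21 for SOCS3, and white matter shows 3 filled points after ventilation and 2 with budesonide. The 4 genes that failed the low-count filter in white matter, and IL6 where its reference group had no counts, are left out.

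Gestational age and ventilation overlapped only at 127 days, so a fit with age as a covariate rests on few animals. In liver that fit ended the ventilation calls of IL6, LIF and OSM (adjusted p = 0.603, 0.428 and 0.334), and sex as a covariate ended the same 3 (adjusted p = 0.0631, 0.0852 and 0.0637), with the liver of animal 060 dropped because it carried no sex label, which left 1 female among the unventilated livers. The ventilation calls of IL6ST, LIFR, OSMR, STAT3, SOCS3 and SOCS1 in liver passed under every alternative run, including those and the fit without animals 049 and 051. Their highest adjusted p over the alternatives was 0.0346, for IL6ST.

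**Figure D3:**
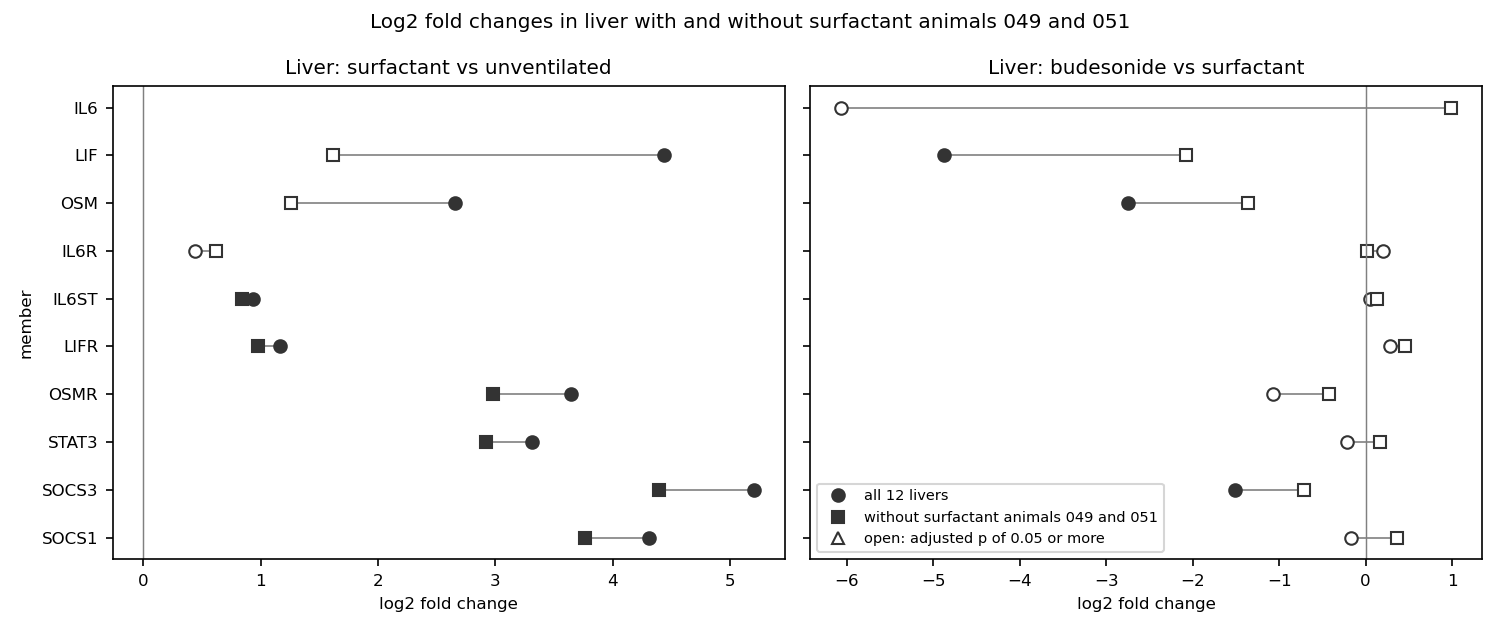
Liver log2 fold changes of the 10 genes with all 12 livers (circles) and without surfactant animals 049 and 051 (squares), filled for adjusted p under 0.05. IL6 after ventilation is not drawn, since its reference group had no counts. After ventilation 6 genes keep filled squares, and for budesonide against surfactant no square is filled.

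In PVWM, 3 of the 6 tested genes were higher in surfactant than in unventilated lambs (IL6ST, OSMR and SOCS3) and 0 were lower. Of all genes tested there, 1.35% were called higher and 0.698% lower. Their median log2 change was 0.63, against 0.02 over all genes. Budesonide against surfactant gave 1 of 6 higher (LIFR) and 1 lower (OSMR), with 0.591% of all genes higher and 0.387% lower. Budesonide against unventilated lambs gave 2 of 6 higher (IL6ST and LIFR) and 0 lower, with 4.35% and 3.71% of all genes called. Without animals 049 and 051, OSMR was the only tested gene still called after ventilation, and it was also the only one called with budesonide against surfactant. Over all PVWM genes, 101 and 84 were then called in those comparisons, against 382 and 182 with all animals.

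**Figure D4:**
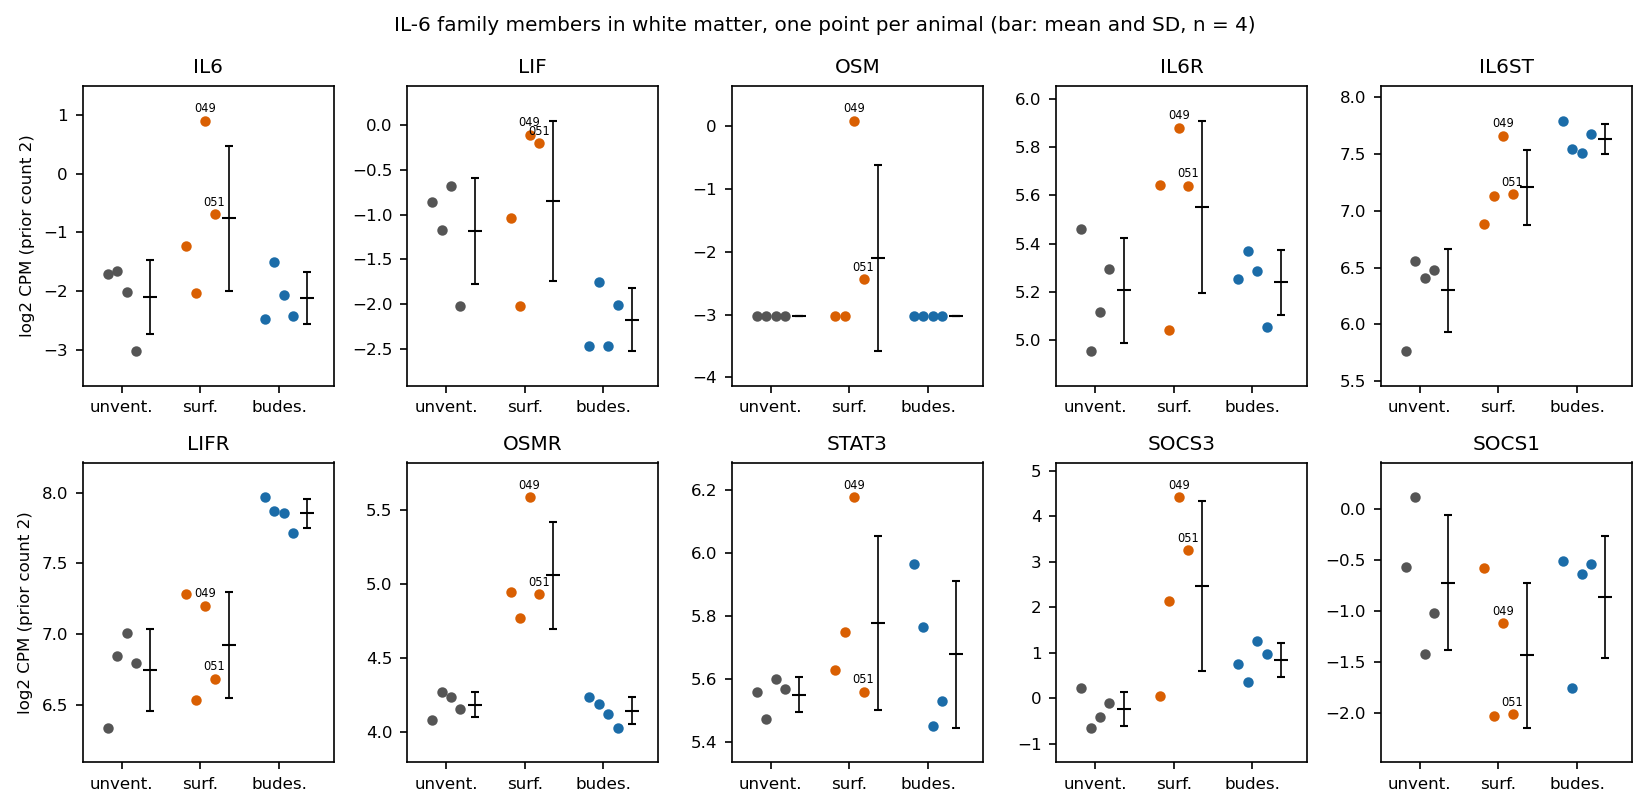
Log2 CPM (prior count 2) of the 10 genes in white matter, with the animals of each group as points and the group mean and SD as bars (n = 4). Budesonide animals lie above all others in LIFR, surfactant animals lie above all others in OSMR, and surfactant animal 049 is the highest of its group in 8 of the 10 genes.

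The cytokine genes were scarcely counted in PVWM. IL6 had 0 to 3 reads in unventilated animals and 1 to 4 in budesonide animals. With surfactant it had 5 reads in animal 007, 2 in 032, 26 in 049 and 8 in 051. LIF had 1 to 12 reads per library. OSM had 14 reads in surfactant animal 049, 1 in animal 051 and 0 in the other 10 libraries, where 3 counts would correspond to 0.0469 CPM over the unventilated and 0.0443 CPM over the budesonide group. SOCS1 had 2 to 15 reads, with ranges that overlapped between all groups. All 4 failed the low-count filter, and animal 049 held the most reads of IL6 and OSM. With no filter edgeR called 0 of the 4 in any PVWM comparison. The log2 change of IL6 was then 2.32 after ventilation (SE 0.82, adjusted p = 0.243) and -2.41 with budesonide against surfactant (SE 0.82, adjusted p = 0.287). LIF had -2.21 with budesonide against surfactant (SE 0.67, adjusted p = 0.205), and SOCS1 -0.91 after ventilation (SE 0.59, adjusted p = 0.601). With so few reads, differences of that size did not pass the test.

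OSMR was the receptor subunit that moved both ways in PVWM. It was 16.8, 19.1, 18.7 and 17.6 CPM in unventilated animals 057, 058, 060 and 061. Surfactant animals had 30.8 CPM in 007, 27.2 in 032, 48 in 049 and 30.4 in 051. Budesonide animals had 18.7 CPM in 031, 18.1 in 048, 17.3 in 050 and 16.2 in 054. The surfactant group lay above both others without overlap, and the budesonide and unventilated ranges overlapped. OSMR rose by a log2 change of 0.92 after ventilation (SE 0.15, adjusted p = 0.00848) and fell by 0.96 on the log2 scale with budesonide against surfactant (SE 0.15, adjusted p = 0.0123). Between budesonide and unventilated lambs the change was -0.04 (95% interval -0.37 to 0.29). The ventilation call ended with sex (adjusted p = 0.102) or gestational age (0.412) as a covariate. The budesonide call ended only with those 2 groups alone in the fit (0.0586), among all alternatives run.

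LIFR had another order, with the budesonide group on top. It was 80.7, 115, 129 and 111 CPM in unventilated animals 057, 058, 060 and 061, and 156, 92.3, 147 and 103 CPM in surfactant animals 007, 032, 049 and 051. Budesonide animals had 251 CPM in 031, 234 in 048, 231 in 050 and 210 in 054. All 4 budesonide animals were above all 8 others, and the surfactant and unventilated ranges overlapped. LIFR was 1.86-fold higher with budesonide than with surfactant (log2 change 0.90, SE 0.17, adjusted p = 0.0301) and 2.13-fold higher than in unventilated lambs (log2 change 1.09, SE 0.17, adjusted p = 0.0017). The call against surfactant ended when any of surfactant animals 032 and 051 or the 4 budesonide animals was left out (log2 change 0.78 to 0.94, adjusted p = 0.0606 to 0.0837), with those 2 groups alone in the fit (0.0625), with sex as a covariate (0.0774) and without both 049 and 051 (0.124). The call against unventilated lambs held under every alternative run. In the annotation of the sheep assembly ARS-UI_Ramb_v3.0, OSMR and LIFR lie on the same chromosome, 16.

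IL6ST in PVWM was 54.2, 94.1, 84.8 and 88.9 CPM in unventilated animals 057, 058, 060 and 061. Surfactant animals had 118 CPM in 007, 140 in 032, 203 in 049 and 142 in 051, and budesonide animals 222, 187, 182 and 204 CPM in 031, 048, 050 and 054. Every ventilated animal was above every unventilated one, and of the surfactant animals 049 alone reached the budesonide range. The log2 change was 0.90 after ventilation (SE 0.18, adjusted p = 0.0218) and 1.30 with budesonide over unventilated lambs (SE 0.18, adjusted p = 0.000707). Against surfactant the budesonide change was 0.40 (95% interval 0.01 to 0.79, adjusted p = 0.399). The ventilation call ended without unventilated animal 060 or 061 (adjusted p = 0.0617 and 0.0524), with only those groups in the fit (0.0878), with sex (0.148) or gestational age (0.509) as a covariate, and without both 049 and 051 (0.178). The budesonide call against unventilated lambs held under every alternative run.

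Microglial markers were lower as a sum in the same budesonide brains. The 8 markers together summed to 227 to 241 CPM in unventilated, 183 to 251 in surfactant and 91.5 to 119 in budesonide PVWM. With budesonide 4 of 8 were lower than with surfactant and 0 higher, where 0.387% and 0.591% of all genes were. Against unventilated lambs 5 of 8 were lower and 1 higher, where 3.71% and 4.35% of all genes were. Mean AIF1 went up, at 6.55 CPM in unventilated, 8.42 in surfactant and 9.49 in budesonide PVWM. Endothelial markers summed to 373 CPM in surfactant animal 049 and to 156 to 244 CPM in the other 11 PVWM libraries. Their part in the receptor results was not tested.

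SOCS3 was low in PVWM but varied widely with surfactant. Unventilated animals 057, 058, 060 and 061 had 1.04, 0.514, 0.627 and 0.805 CPM. Surfactant animals had 0.91 CPM in 007, 4.29 in 032, 21.2 in 049 and 9.42 in 051, and budesonide animals 1.57, 1.16, 2.25 and 1.82 CPM in 031, 048, 050 and 054. Surfactant animal 007 was within the unventilated range, and the other 3 were above all animals of both other groups. The log2 change after ventilation was 3.56 (SE 0.72, adjusted p = 0.0224). That call ended when any of the 4 unventilated animals was left out (adjusted p = 0.0527 to 0.0995), with no low-count filter (0.0527), with only those groups in the fit (0.101), with sex (0.336) or gestational age (0.856) as a covariate, and without both 049 and 051 (log2 change 1.79, adjusted p = 0.224). The neutrophil markers summed to 12.3 CPM in animal 049 and 9.99 CPM in animal 051, against 2.91 to 5.57 CPM in the other 10 PVWM libraries, and their part was not tested.

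Budesonide against surfactant gave a log2 change of -2.39 in PVWM SOCS3 (SE 0.66, adjusted p = 0.121). It passed in DESeq2 (adjusted p = 0.00729) and without animal 007 (0.0157). It was -0.61 without animals 049 and 051 (adjusted p = 0.821). Against unventilated lambs the budesonide change was 1.18 (95% interval -0.42 to 2.77, adjusted p = 0.392), although the budesonide values lay above the unventilated ones. It passed only with those groups alone in the fit (adjusted p = 0.0464).

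STAT3 and IL6R did not pass in any PVWM comparison. STAT3 was 44.3 to 48.4 CPM in unventilated, 47.1 to 72.2 in surfactant and 43.6 to 62.3 in budesonide PVWM. Its log2 change after ventilation was 0.25 (95% interval -0.05 to 0.55, adjusted p = 0.451), and animal 049 had the highest level. IL6R was 30.9 to 43.9 CPM in unventilated, 32.8 to 58.8 in surfactant and 33.1 to 41.2 in budesonide PVWM. Its log2 change was 0.36 after ventilation (adjusted p = 0.310) and -0.34 with budesonide against surfactant (adjusted p = 0.428).

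The difference between the tissues was tested by subtracting the PVWM change from the liver change in 1 fit of all 24 libraries, where the filter kept all 10 genes. The 8 with counts in every group of both tissues were compared, which leaves out IL6 and OSM (neither was called). After ventilation with surfactant, 5 of 8 changed more in liver, where 25.8% of all 20010 genes differed in either direction. In the direction of these 5, with the liver change the more positive, 2928 of the 20010 differed. The difference in log2 change was 5.28 for SOCS1 (SE 0.67, adjusted p = 8.81e-06), 3.98 for LIF (SE 1.34, adjusted p = 0.0321), 3.15 for STAT3 (SE 0.27, adjusted p = 7.32e-08), 2.81 for OSMR (SE 0.41, adjusted p = 4.46e-05) and 1.04 for LIFR (SE 0.24, adjusted p = 0.00256). For SOCS3 it was 1.74 (SE 0.91, adjusted p = 0.170), and with the animal as a replicate block 2.02 (adjusted p = 0.0171). SOCS1 and LIF, both counted among the 5, failed the low-count filter in PVWM alone and passed it here through their liver counts. The PVWM side of their difference rests on at most 15 and 12 reads per library. SOCS1 had a change of 4.31 in liver and, with no filter, an uncalled -0.91 in PVWM. IL6ST rose by nearly equal amounts, and the difference was 0.10 (95% interval -0.41 to 0.62). The LIF call ended when any 1 of animals 049, 051, 057, 058 and 060 was left out (difference 3.39 to 4.05, adjusted p = 0.0564 to 0.120). Without both 049 and 051, LIF (2.17, adjusted p = 0.183) and LIFR (0.85, adjusted p = 0.0528) were not called, and SOCS3 was (2.69, adjusted p = 0.0245). SOCS1, STAT3 and OSMR differed between tissues under every alternative run.

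For budesonide against surfactant edgeR called 0 of 8 as different between tissues, at a background of 3.41%. LIFR had a difference of -0.62 (95% interval -1.11 to -0.13, unadjusted p = 0.0159, adjusted p = 0.156), with a change of 0.28 in liver and 0.90 in PVWM. IL6R had an unadjusted p of 0.0445, and those were the only unadjusted p under 0.05 among the 8 genes. Of all 20010 genes, 3610 had one. In OSMR the changes were -1.07 in liver and -0.96 in PVWM, with a difference of -0.12 (95% interval -0.96 to 0.72). Without animals 049 and 051 the OSMR difference was 0.32 (adjusted p = 0.757).

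Between budesonide and unventilated lambs 5 of 8 changed more in liver, at a background of 29.7% in either direction. In the direction of these 5, 3234 of the 20010 genes differed. SOCS1 is again 1 of the 5 through its liver counts, with at most 15 reads in a PVWM library. The difference was 4.42 for SOCS1 (SE 0.64, adjusted p = 2.32e-05), 3.03 for STAT3 (SE 0.27, adjusted p = 5.18e-08) and 2.69 for OSMR (SE 0.41, adjusted p = 5.01e-05). It was 2.60 for SOCS3 (SE 0.96, adjusted p = 0.0439) and 0.70 for IL6R (SE 0.26, adjusted p = 0.0449). With the animal as a replicate block IL6R no longer passed (0.74, adjusted p = 0.0523). SOCS3 lost its call when any 1 of animals 031, 048, 050, 051, 054, 057, 058, 059, 060 and 061 was left out (adjusted p = 0.0529 to 0.133) and with no low-count filter (0.0659). IL6R lost it when any 1 of 031, 048, 050, 051, 057, 058, 060 and 061 was left out (adjusted p = 0.0522 to 0.142), with no filter (0.0540) and with median-ratio scaling (0.0686). Over all such omissions the difference was 2.38 to 2.84 for SOCS3 and 0.59 to 0.79 for IL6R, so the size moved little while the call was lost. SOCS1, STAT3 and OSMR passed under every alternative run.

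**Figure D5:**
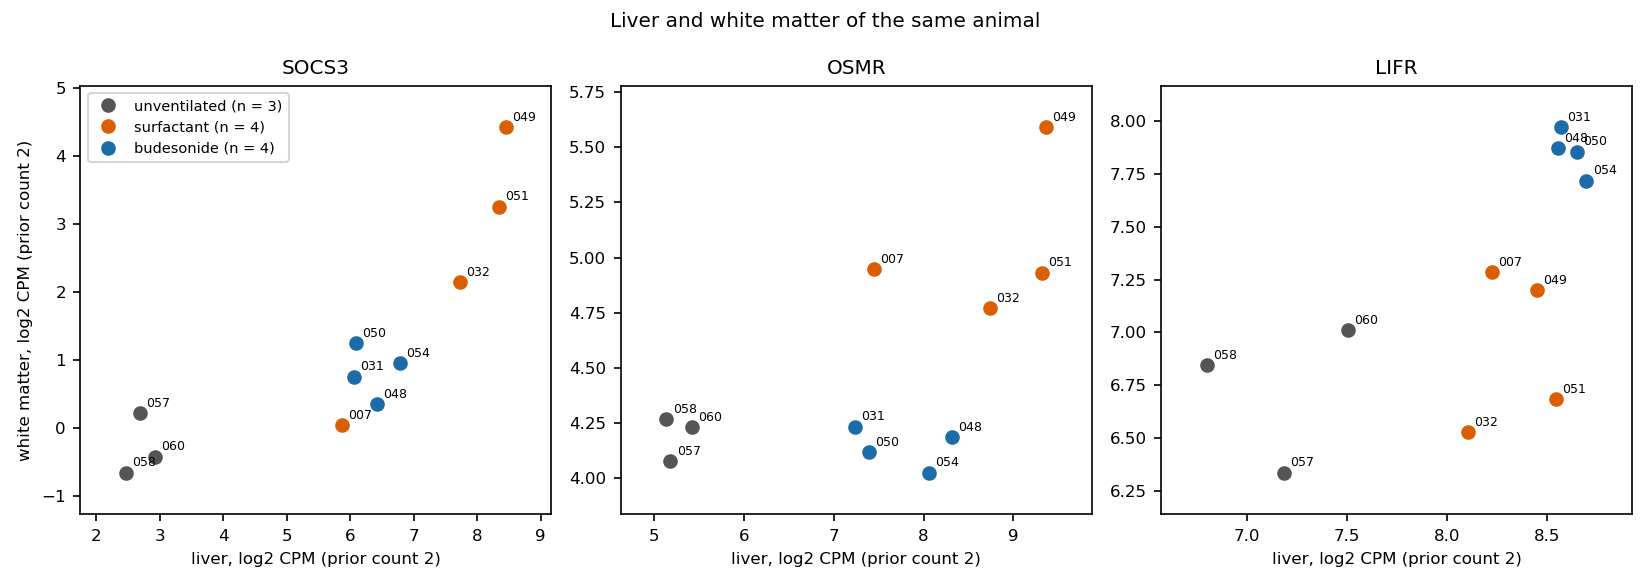
Log2 CPM (prior count 2) of SOCS3, OSMR and LIFR in liver (horizontal) and white matter (vertical) of the 11 animals with both tissues, coloured by group. SOCS3 rises through surfactant animals 007, 032, 051 and 049 in the same order in both tissues, OSMR is high in white matter in surfactant animals only, and LIFR is high in white matter in budesonide animals only.

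The animals with both tissues show how far liver and brain ran together. Surfactant animals 007, 032, 051 and 049 took that order from lowest to highest SOCS3 in liver and again in PVWM. Other genes did not keep their order. OSMR ran as SOCS3 did in liver, but from 032 through 051 and 007 to 049 in PVWM. STAT3 ran from 007 through 032 and 049 to 051 in liver, and from 051 through 007 and 032 to 049 in PVWM. The likeness of order was not tested. For OSMR, budesonide animals had liver levels above all unventilated ones while their PVWM levels were within or just below the unventilated range. These are single animals per point, and no correlation was calculated over groups that lie apart.

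The wider pathway was described from lists compiled from general knowledge, with earlier results of these data known. Counts from them are therefore description and no independent test. In liver after ventilation, 17 of 18 tested genes known as STAT3 targets were higher and 0 lower, against 21.6% of all genes higher and 19.5% lower, with a median log2 change of 2.93. ITIH4, an acute-phase protein of hepatocytes, rose by 2.94 (SE 0.25), the nuclear regulator BCL3 by 3.73 (SE 0.34) and the growth regulator MYC by 3.17 (SE 0.32). Without animals 049 and 051 the count was 16. Against unventilated lambs 15 of 18 were higher with budesonide, where 23.3% of all genes were, among them the fibrinogen chains FGB at 1.80 (SE 0.18) and FGG at 1.81 (SE 0.18). FGB also stands in the list of hepatocyte markers. Against surfactant, 3 of 18 were lower with budesonide, where 7.85% of all genes were: BCL3 at -1.66 (SE 0.31), the adhesion molecule ICAM1 at -1.81 (SE 0.48) and the interleukin-4 receptor chain IL4R at -0.97 (SE 0.28). That count was 1 without animals 049 and 051. ITIH4 is an instance of the genes that stayed high: 598 ± 130 CPM in unventilated, 4572 ± 1345 in surfactant and 3156 ± 379 in budesonide livers (SD, n = 4).

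Of the other cytokines of the family, 2 of 4 tested in liver were higher after ventilation and 0 lower, where 21.6% and 19.5% of all genes were. They were IL27 (log2 change 1.72, adjusted p = 0.00467) and EBI3 (0.72, adjusted p = 0.0468), whose products pair to form interleukin-27. Both were lower with budesonide than with surfactant (-1.69, adjusted p = 0.0192, and -1.12, adjusted p = 0.0207), where 7.85% of all genes were. Both comparisons fell to 0 called without animals 049 and 051. Among 3 other receptor subunits, IL27RA and CNTFR were higher after ventilation (1.28 and 0.58) and IL11RA, which binds interleukin-11, was lower (-1.06, adjusted p = 0.00369). The shares of all genes are again 21.6% higher and 19.5% lower. CNTFR, for ciliary neurotrophic factor, was lower with budesonide than with surfactant in liver (-1.20, adjusted p = 0.00458) and in PVWM (-0.47, adjusted p = 0.0355). It was the 1 of the 3 called in each tissue, where 7.85% of all liver genes and 0.387% of all PVWM genes were lower. The PVWM count was 0 without animals 049 and 051.

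Kinases, adaptors and other STATs changed less than STAT3. In liver 4 of 8 were higher after ventilation, where 21.6% of all genes were, and 0 lower, including the receptor kinases JAK1 (0.98, SE 0.16) and JAK2 (0.98, SE 0.20) and the transcription factor STAT5B (1.00, SE 0.20). Between budesonide and surfactant edgeR called 0 of the 8, with 3 at an unadjusted p under 0.05, as were 5016 of all 16824 genes. A list of 13 held other SOCS genes, negative regulators and the proteases ADAM17 and ADAM10. Of these, 5 were higher and 2 lower after ventilation, where 21.6% and 19.5% of all genes were. The phosphatase PTPN1 rose by 1.80 (SE 0.19), SOCS2 by 1.61 (SE 0.36) and ADAM17, a protease that sheds membrane receptors, by 0.73 (SE 0.12). ADAM17 was the 1 of the 13 that was lower with budesonide than with surfactant (-0.45, adjusted p = 0.0295), where 7.85% of all genes were, and a count of 0 without animals 049 and 051.

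In PVWM few of these genes moved. After ventilation 3 of 13 tested STAT3 targets were higher, where 1.35% of all genes were, and 0 lower: the survival gene BCL2L1 by 0.38 (SE 0.06), the transcription factor CEBPB by 1.60 (SE 0.28) and ICAM1 by 3.56 (SE 0.71). Without animals 049 and 051 none of the 13 was called higher and 1 was called lower. Between budesonide and surfactant edgeR called 0 of the 13 targets, with 6 at an unadjusted p under 0.05, as were 2217 of all 18616 genes. Against unventilated lambs, budesonide brains had BCL2L1 and CEBPB higher and the early-response gene FOS lower (-1.49, SE 0.41, adjusted p = 0.0435). ADAM17 (0.61), the phosphatase PTPN2 (0.41) and the protease ADAM10 (0.40) were also higher there. They were 3 of the 13 in the list of SOCS genes, negative regulators and proteases, where 4.35% of all genes were higher. Of the 4 other cytokines and 8 kinases, adaptors and other STATs tested, edgeR called 0 in each PVWM comparison, with at most 2 and 3 of them at an unadjusted p under 0.05. Of all 18616 genes, 2742 were under it for surfactant against unventilated lambs and 2217 for budesonide against surfactant. For budesonide against unventilated lambs 4065 were.

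The genes with the most similar profile were taken by Pearson correlation of log2 CPM over the 12 libraries of a tissue, as a description in which the groups themselves supply most of the likeness. For IL6 in liver they were MEFV (r = 0.967), CXCL8 (0.960), FILIP1 (0.957), PTGS2 (0.948) and IRF1 (0.945), of 12284 named genes. CXCL8 is a neutrophil-attracting chemokine and PTGS2 the inducible cyclooxygenase. For SOCS3 in liver they were DENND4C (0.993), OSMR (0.993), IVNS1ABP (0.992), USP38 (0.991) and IL17RA (0.991), so another of the 10 genes stood among them. For SOCS3 in PVWM they were SELP (0.963), which encodes the endothelial adhesion molecule P-selectin, IER3 (0.948), SBNO2 (0.928), RCAN1 (0.928) and EIF4EBP3 (0.919), of 13030 named genes.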

How the data were processed

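Poly-A-selected RNA of 12 liver and 12 PVWM samples was sequenced as paired ends, per the labels. The authors deposited whole-number counts per gene and sample. Per the submitters' processing notes, Bowtie2, featureCounts and edgeR were used. Versions, strand setting and genome build are not given in the sources used here. Every count column matched 1 sample (0 left over).

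In R 4.3.3 with edgeR 4.0.16, genes of each tissue were kept by filterByExpr, scaled by TMM, and fitted with the 3 groups in a robust quasi-likelihood model. A gene was called below 0.05 after Benjamini-Hochberg adjustment across the tested genes. SE was derived from the fold change and its F statistic (size of the log2 change over the root of F). Intervals are 95%. CPM are scaled by TMM, and log2 CPM used a prior count of 2. A fold over a group with no counts assigns 3 counts to that group, which covers counting error only. The p-values within a tissue measure spread between animals.

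Tissue differences came from 1 fit of 24 libraries with 6 groups, for the 8 genes counted in every group. Its p-values treat the 24 libraries as independent. Libraries that share an animal number in their titles were taken to come from 1 animal. With group means subtracted, the 11 pairs correlated at 0.0795 to 0.251 (median 0.132, 8 over 0.1), so the animal as a block was an alternative. Others were median-ratio scaling, no filter, DESeq2 1.42.0, the compared groups alone, sex or gestational age as covariates, and leaving out each animal. The fits were tested on simulated data.

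The 10 genes and all lists were chosen with earlier results of these data known. All 10 are reported whatever their result. Of each pathway list, the called genes with the smallest p, at most 3 per comparison, could be named, and of like patterns the 5 closest.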

Additional observations from a re-analysis of the deposited data

Results flagged for a closer look

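Single animals stood far from the other 3 of their group in 3 of 57 sets of 4 animals, where the gap to the nearest animal, as a share of the whole range, exceeded Dixon's critical value for 4 samples. Chance marks about 1 in 20 sets. IL6 in liver was 3.09 CPM in budesonide animal 031, against 0.129 to 0.344 in the others. OSM in PVWM was 0.943 CPM in surfactant animal 049, against 0 to 0.0624. SOCS1 in PVWM was 0.174 CPM in budesonide animal 048, against 0.520 to 0.581.

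Changes that differed between liver and PVWM by the edgeR test of the difference itself were SOCS1 (5.28), LIF (3.98), STAT3 (3.15), OSMR (2.81) and LIFR (1.04) for surfactant against unventilated lambs. For budesonide against unventilated lambs they were SOCS1 (4.42), STAT3 (3.03), OSMR (2.69), SOCS3 (2.60) and IL6R (0.70), each as liver minus PVWM in log2 units. SOCS1 and LIF failed the low-count filter in PVWM alone and entered this fit through their liver counts.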

How the results depend on the processing

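Of 48 results of single genes within a tissue, 26 were called. Of these, 14 passed whatever the alternative, 12 failed in 1 or more, and 0 changed direction. Of 22 not called, 5 gained a call and 8 changed sign. Of 24 tissue differences 10 were called, and 6 of these held.

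Counts of the 10 genes called moved as follows. For budesonide against surfactant in liver (3) it was 5 in DESeq2, 1 with the compared groups alone, 0 without surfactant animals 049 and 051, and 2 to 5 without single animals. For PVWM after ventilation (3) it was 1, 0 and 0 with the groups alone, sex and age, 1 without 049 and 051, and 1 to 3 without single animals. For PVWM budesonide against surfactant (2) it was 0 with the groups alone, 1 with sex, 1 without 049 and 051, and 1 to 3 without single animals. The tissue difference of budesonide against unventilated (5) was 3 with no filter and 3 to 5 without single animals.

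Counts over all genes moved too. Liver after ventilation (6911) gave 4273 with sex, 1398 with age and 3906 without 049 and 051. Liver budesonide against surfactant (1994) gave 3135 in DESeq2, 884 with the groups alone and 1007 to 2838 without single animals. Liver budesonide against unventilated (7903) gave 2958 with age. PVWM after ventilation (382) gave 822 in DESeq2, 174 with the groups alone, 97 with sex, 15 with age, 101 without 049 and 051 and 173 to 501 without single animals. PVWM budesonide against surfactant (182) gave 548 in DESeq2, 69 with the groups alone, 80 with sex, 84 without 049 and 051 and 66 to 207 without single animals. PVWM budesonide against unventilated (1501) gave 668 with sex, 346 with age and 998 to 1657 without single animals. The tissue difference after ventilation (5170) gave 2484 without 049 and 051. That of budesonide against surfactant (683) gave 428 with the replicate block and 282 to 1163 without single animals. The replicate block changed the call of IL6R and SOCS3 as given above and no other. The cause of these moves was not tested.

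Signs of uncalled changes turned as follows, in log2 units. Without 049 and 051, budesonide against surfactant was 0.99 for IL6, 0.17 for STAT3 and 0.36 for SOCS1 in liver and 0.0037 for STAT3 in PVWM. With age as a covariate, budesonide against unventilated was -0.94 for liver IL6 and -0.044 for PVWM IL6R. Without single animals the ranges were -0.069 to 0.12 for liver IL6ST and -0.21 to 0.048 for PVWM STAT3 (budesonide against surfactant), and -0.26 to 0.22 for liver OSM and -0.063 to 0.11 for PVWM IL6R (budesonide against unventilated). Tissue differences ranged from -0.027 to 0.36 for IL6R and -0.10 to 0.30 for IL6ST after ventilation, and -0.36 to 0.10 for OSMR and -0.25 to 0.11 for STAT3 with budesonide against surfactant. Without 049 and 051 the latter were 0.32 for OSMR, 0.18 for STAT3 and -0.095 for SOCS3. With 4 animals per group and at most 26 reads of IL6, LIF, OSM or SOCS1 in a PVWM library, the few reads limit what can be called for those 4 genes there.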
